A study of Arabidopsis thaliana with 8 samples.

Results

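Gibberellins are diterpenoid hormones that promote cell elongation and division, and in the root they act mainly on the elongation zone and the meristem. Their level is set late in the pathway by soluble oxygenases. GA 20-oxidases (GA20ox) and GA 3-oxidases (GA3ox) carry out the last steps that make bioactive gibberellin, and GA 2-oxidases (GA2ox) inactivate gibberellins or their precursors. In *Arabidopsis*, bioactive gibberellin is known to lower the transcripts of several GA20ox and GA3ox genes and to raise those of several GA2ox genes. The 9 genes described here were taken by locus identifier from tables of 33544 genes. They are *GA20ox1* (AT4G25420), *GA20ox2* (AT5G51810), *GA20ox3* (AT5G07200), *GA3ox1* (AT1G15550), *GA3ox2* (AT1G80340), *GA2ox1* (AT1G78440), *GA2ox2* (AT1G30040), *GA2ox6* (AT1G02400) and *GA2ox8* (AT4G21200), so 5 genes of synthesis and 4 of inactivation. All 9 were found in both tables, and the symbols of all 9 loci were found in RefSeq.

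The study asked how extracellular ATP changes gene expression in *Arabidopsis thaliana* roots and whether the heterotrimeric G protein α subunit takes part. The 4 conditions were wild type of the WS ecotype without ATP, WS after 60 min on medium with ATP, the Gα null mutant *gpa1-2* (also in the WS background) without ATP, and *gpa1-2* after 60 min with ATP. Seedlings were grown on 1/2 MS medium, for 4 days according to the labels and for longer according to the methods, and the methods give 1 cm root tips as the tissue. The ATP concentration is 0.3 mM in the methods and 0.5 mM where the study's results describe the genome-wide data. The untreated roots are labelled as taken before treatment, so the effects of ATP, of the transfer to new medium and of 60 min of time cannot be told apart.

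The labels give 2 biological replicates for each condition, 8 samples in all, but the tables hold 1 value per gene and condition. The values below therefore carry no error between replicates, and no test between conditions could be made. Levels are given as FPKM, mapped fragments scaled to transcript length and to library size, and as the number of reads recovered from the deposited scaled counts, which totalled 11769875 to 13483769 reads per condition. The 95% intervals are exact intervals that assume independent reads and cover counting error only. The reads were not fully independent, as described under the processing, so these intervals may be too narrow. The columns of the tables carry a number but no genotype or treatment, and they were assigned through the numbers of genes that the tables mark as up- or down-regulated. *GPA1* (AT2G26300), the gene mutated in *gpa1-2*, had 51.9 and 46.5 FPKM in untreated and ATP-treated WS and 28.6 and 31.1 FPKM in the mutant. It was therefore lower in the columns assigned to *gpa1-2* and not at 0. All 11 root markers, such as *PIN2* and *SCR*, had at least 1 FPKM in every condition. In bulk roots, fewer cells that express a gene and less RNA per cell cannot be told apart.

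The 9 genes differed widely in level, and a single inactivation gene held most of their transcripts. *GA2ox6* had 95.8 FPKM in untreated WS, 126 FPKM in ATP-treated WS, 77.6 FPKM in untreated *gpa1-2* and 134 FPKM in ATP-treated *gpa1-2*. This placed *GA2ox6* above 92.7% to 95.3% of all genes, and it made up 82.6%, 88.0%, 75.7% and 89.6% of the summed FPKM of the 9 genes in the same order of conditions. *GA2ox8*, which encodes an enzyme known to act on gibberellin precursors, was the next highest at 8.19 to 12.1 FPKM. *GA2ox2*, whose enzyme acts on bioactive gibberellins and their direct precursors, followed at 3.75 to 5.92 FPKM. The other 6 genes had at most 2.72 FPKM in any condition. The counting intervals of *GA2ox6*, *GA2ox8* and *GA2ox2* did not overlap with that of the next gene in order in 3 of 4 conditions. In untreated WS the interval of *GA2ox2* overlapped with that of *GA20ox2*. Below *GA2ox2*, every neighbouring pair overlapped in every condition, so neighbours in this order are not distinguished. The intervals of genes farther apart in it can lie apart, as those of *GA20ox2* (1.91 to 3.77 FPKM) and *GA3ox1* (0.472 to 1.69 FPKM) in untreated WS.

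**Figure D1:**
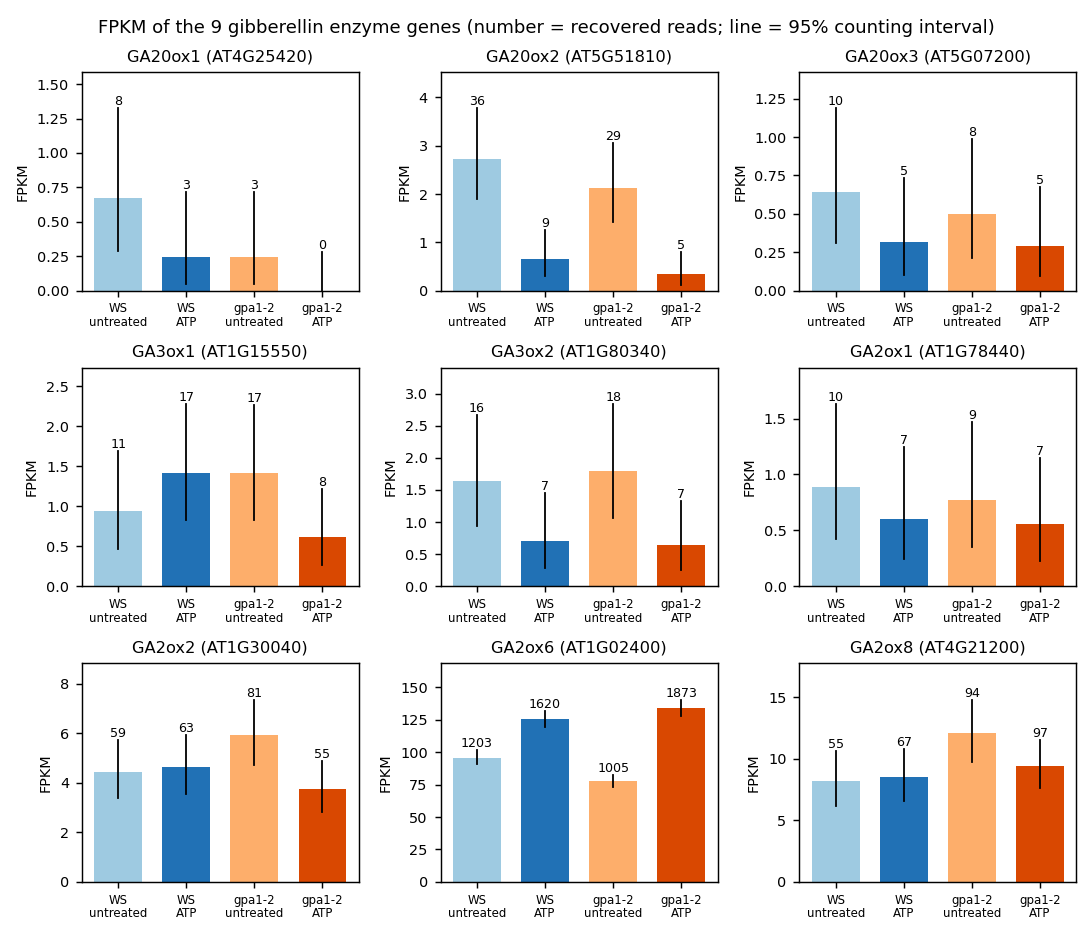
FPKM (y axis, linear, a separate scale for each gene) of the 9 gibberellin enzyme genes in the 4 conditions. Bars are the single deposited value, lines are 95% counting intervals and the number above each line is the recovered reads. *GA2ox6* lies between 77.6 and 134 FPKM, while the 5 synthesis genes stay at or below 2.72 FPKM and *GA20ox2* is lower after ATP in both genotypes.

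The GA 20-oxidases make the direct precursors of bioactive gibberellin and are often the limiting step of the pathway. *GA20ox2* was the most abundant of them without ATP, with 2.72 FPKM (36 reads) in untreated WS and 2.13 FPKM (29 reads) in untreated *gpa1-2*. After ATP it had 0.663 FPKM (9 reads) in WS and 0.340 FPKM (5 reads) in *gpa1-2*. Both treated values lay below both untreated values, and the counting intervals of treated and untreated roots did not overlap in either genotype. The ratio of scaled reads, ATP-treated over untreated, was 0.244 (95% interval 0.103 to 0.516) in WS and 0.160 (0.0483 to 0.418) in *gpa1-2*.

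The response of a gene was taken as log2(FPKM + 1) in ATP-treated roots minus that in untreated roots, which understates the change of a gene with few FPKM, and a gene with at least 1 FPKM in a condition compared was counted as changed at a response of 1 or more in size. By this measure *GA20ox2* was the 1 gene of the 9 that changed, with a response of -1.16 in WS and -1.22 in *gpa1-2*. Among all genes at or above 1 FPKM, 4.28% of 19901 were lower by this rule in WS and 3.78% of 19865 in *gpa1-2*. For the 9 genes this was 1 of 6 above 1 FPKM in each genotype, and none was higher, against a background of 3.75% in WS and 3.6% in *gpa1-2*. *GA20ox2* and *GA3ox2* reached 1 FPKM only without ATP, so a lower value after ATP was built into their inclusion. The count is therefore a description only. The call on *GA20ox2* was lost in both genotypes with a pseudocount of 5 FPKM or a minimum of 10 FPKM.

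*GA20ox1*, a gene known for its role in stem elongation, had 0.672 FPKM (8 reads) in untreated WS, 0.245 FPKM (3 reads) in ATP-treated WS, 0.244 FPKM (3 reads) in untreated *gpa1-2* and 0 FPKM (0 reads) in ATP-treated *gpa1-2*. Its highest value was thus in untreated WS, and all values were below 1 FPKM. The ratio in WS was 0.365 (0.0625 to 1.52), an interval that includes 1. In ATP-treated *gpa1-2*, the interval around 0 reads reached up to 0.278 FPKM, and no fold is given because both values of this genotype were at or under 3 reads. *GA20ox3*, known mainly from seeds, had 0.644 FPKM (10 reads) and 0.50 FPKM (8 reads) in untreated WS and *gpa1-2*, and 0.314 FPKM and 0.290 FPKM (5 reads each) after ATP. Its ratios of 0.487 (0.131 to 1.56) in WS and 0.580 (0.149 to 2.01) in *gpa1-2* both had intervals that include 1. Summed over the 3 genes, GA 20-oxidase transcripts had 4.04 FPKM (54 reads) and 1.22 FPKM (17 reads) in untreated and ATP-treated WS, and 2.87 FPKM (40 reads) and 0.630 FPKM (10 reads) in *gpa1-2*. *GA20ox2* supplied most of these reads without ATP.

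The GA 3-oxidases convert the products of the GA 20-oxidases into bioactive gibberellin. *GA3ox2*, which is expressed in roots and germinating seeds, had 1.64 FPKM (16 reads) in untreated WS, 0.701 FPKM (7 reads) in ATP-treated WS, 1.79 FPKM (18 reads) in untreated *gpa1-2* and 0.647 FPKM (7 reads) in ATP-treated *gpa1-2*. Both untreated values were thus above both treated values. The ratio of scaled reads was 0.426 (0.148 to 1.10) in WS and 0.361 (0.127 to 0.905) in *gpa1-2*. The interval included 1 in WS but not in *gpa1-2*, where its upper end lay near 1 and may be too low. The responses of *GA3ox2*, -0.64 and -0.76, did not reach 1 in size.

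*GA3ox1* is the GA 3-oxidase gene of broadest expression in the plant. It had 0.945 FPKM (11 reads) in untreated WS, 1.42 FPKM (17 reads) in ATP-treated WS, 1.42 FPKM (17 reads) in untreated *gpa1-2* and 0.618 FPKM (8 reads) in ATP-treated *gpa1-2*. The value after ATP was the higher one in WS and the lower one in *gpa1-2*. The ratios were 1.51 (0.666 to 3.56) in WS and 0.436 (0.163 to 1.07) in *gpa1-2*, and both intervals include 1. *GA3ox2* lies next to *GA3ox4* on chromosome 1, a related gene that had 0 reads in every condition. The summed GA 3-oxidase level was 2.59 FPKM (27 reads) and 2.12 FPKM (24 reads) in untreated and ATP-treated WS, and 3.21 FPKM (35 reads) and 1.26 FPKM (15 reads) in *gpa1-2*.

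Because 4 of the 5 synthesis genes lay below 2 FPKM, the plain ratio of scaled reads was also counted, a measure chosen after the values were seen. In WS, 4 of 5 synthesis genes (*GA20ox1*, *GA20ox2*, *GA20ox3* and *GA3ox2*) had fewer scaled reads after ATP by at least 2-fold. In *gpa1-2*, 3 of 5 did so (*GA20ox2*, *GA3ox1* and *GA3ox2*), leaving out *GA20ox1*, whose 3 and 0 reads pass any limit of this kind. None of the 4 inactivation genes did so in either genotype. None of the 9 genes had more reads after ATP by at least 2-fold, as 8.83% of all genes in WS and 8.47% in *gpa1-2* did. Of all genes with a read in a condition compared, 10.6% in WS and 10.5% in *gpa1-2* were lower by this measure, genes at 0 reads after ATP included. Genes with few reads pass a 2-fold limit more often through counting error, and among genes with 10 to 50 reads over the conditions compared the share was 16.3% of 2840 in WS and 17.4% of 2764 in *gpa1-2*. Of the 9 genes, 6 in WS and 5 in *gpa1-2* fell into that range of reads, and 4 and 3 of them were lower by at least 2-fold. The 5 synthesis genes together had 6.63 FPKM (81 reads) in untreated and 3.35 FPKM (41 reads) in ATP-treated WS, and 6.08 FPKM (75 reads) and 1.89 FPKM (25 reads) in *gpa1-2*.

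Some markers of leaf and shoot cells also differed with treatment. The summed level of 6 such markers was 28.6 FPKM in untreated and 23.5 FPKM in ATP-treated WS, and 23.9 and 12.6 FPKM in *gpa1-2*. Of these 6, 4 had at least 1 FPKM in every condition but ATP-treated *gpa1-2*, where 3 did. *RBCS1A*, which encodes a small subunit of Rubisco, fell in both genotypes, with 38 and 11 reads in untreated and ATP-treated WS, 59 and 7 reads in *gpa1-2*, and responses of -1.25 and -2.11. *PSAF*, the most abundant of the 6, was also lower after ATP in both, with 12.5 and 9.66 FPKM in untreated and ATP-treated WS. In *gpa1-2* it had 10.1 and 6.52 FPKM. *LHCB1.3* and *RCA* had responses of 0.08 and 0.03 in WS and of -0.52 and -0.37 in *gpa1-2*. *LHCB2.1* had 2 and 3 reads in WS and 0 and 4 reads in *gpa1-2*. The defining shoot meristem gene *STM* had 2 and 3 reads in WS and 0 in both *gpa1-2* conditions. The summed level of the 11 root markers was 655 and 683 FPKM in untreated and ATP-treated WS, and 697 and 821 FPKM in *gpa1-2*, and *CASP1* alone made up 444, 391, 511 and 534 FPKM of it. Of the 11, 2 rose by at least 1 in WS and 1 in *gpa1-2*, against 3.75% and 3.6% of all genes. In WS 5 of the 11 had a response below 0, down to -0.42, while in *gpa1-2* all 11 were above 0. *WOX5*, which marks the quiescent centre, rose in both, with 16 and 311 reads in WS, 33 and 324 reads in *gpa1-2* and responses of 3.81 and 2.97, and *PIN2* had responses of 1.14 and 0.82. The part of these markers in the lower synthesis transcripts was not tested.

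**Figure D2:**
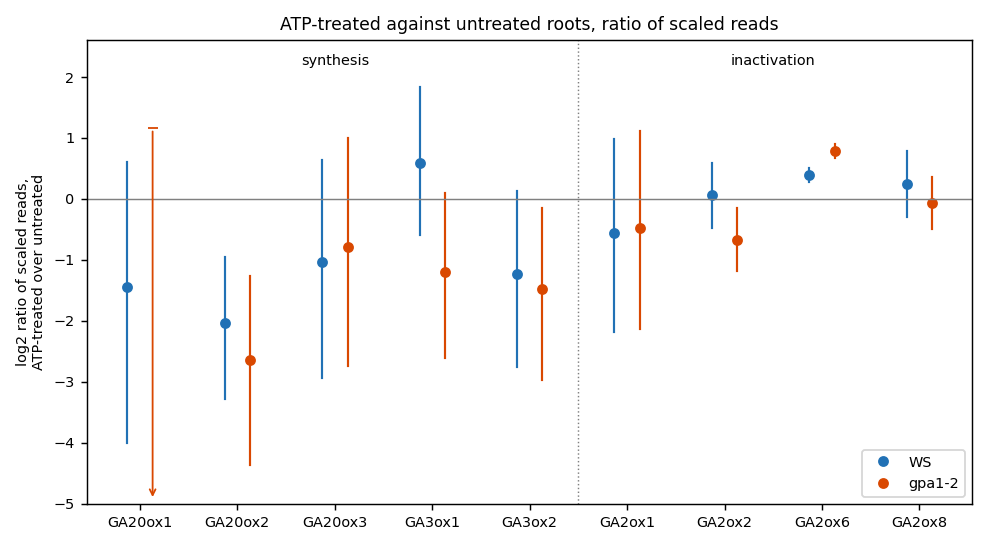
Log2 ratio of scaled reads, ATP-treated over untreated (y axis), for each of the 9 genes in WS (blue) and *gpa1-2* (orange). Points are the ratio and lines the 95% counting interval, and the arrow for *GA20ox1* in *gpa1-2* has an upper limit but no point because it had 0 reads after ATP. *GA20ox2* lies below 0 with its interval in both genotypes, and *GA2ox6* lies above 0 with its interval in both.

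The GA 2-oxidases add a hydroxyl group that removes activity. In *gpa1-2*, 3 of the 4 genes (*GA2ox1*, *GA2ox2* and *GA2ox8*) had fewer scaled reads after ATP and *GA2ox6* had more, while in WS *GA2ox1* alone had fewer. Of all genes with a read in a condition compared, 48.9% in *gpa1-2* and 51.8% in WS had fewer. The intervals of *GA2ox1* and *GA2ox8* included 1 in both genotypes, so no direction can be given for these genes. *GA2ox6* had 1203 reads in untreated and 1620 reads in ATP-treated WS, and 1005 and 1873 reads in *gpa1-2*. Both treated values were above both untreated values. The ratio of scaled reads was 1.31 (1.22 to 1.42) in WS and 1.73 (1.60 to 1.87) in *gpa1-2*, and both intervals excluded 1. On the log2 scale the responses were 0.39 and 0.78, short of the limit of 1. The limit of 0.5 was passed upward in *gpa1-2*, as it was by 13.3% of all genes.

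*GA2ox2* had 4.43 FPKM (59 reads) in untreated WS, 4.64 FPKM (63 reads) in ATP-treated WS, 5.92 FPKM (81 reads) in untreated *gpa1-2* and 3.75 FPKM (55 reads) in ATP-treated *gpa1-2*. The WS values were close to each other, while untreated *gpa1-2* had the highest and ATP-treated *gpa1-2* the lowest value of the 4. The ratios were 1.04 (0.718 to 1.51) in WS and 0.630 (0.439 to 0.898) in *gpa1-2*. The interval included 1 in WS but not in *gpa1-2*, where its upper end lay near 1 and may be too low. *GA2ox1*, which encodes another enzyme of this type, had 0.886 FPKM (10 reads) and 0.604 FPKM (7 reads) in untreated and ATP-treated WS, and 0.773 FPKM (9 reads) and 0.558 FPKM (7 reads) in *gpa1-2*. Its ratios of 0.682 (0.220 to 1.99) and 0.721 (0.228 to 2.18) were not distinguishable from 1 at this depth.

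*GA2ox8* had 8.19 FPKM (55 reads) in untreated WS, 8.51 FPKM (67 reads) in ATP-treated WS, 12.1 FPKM (94 reads) in untreated *gpa1-2* and 9.44 FPKM (97 reads) in ATP-treated *gpa1-2*. Both *gpa1-2* values were above both WS values. Its scaled count per FPKM varied from 3.78 to 5.20 between conditions, so its FPKM and its reads moved differently. The ATP ratio was 1.19 (0.819 to 1.73) by scaled reads and 1.04 by FPKM in WS, and 0.957 (0.713 to 1.28) by scaled reads and 0.780 by FPKM in *gpa1-2*. Summed over the 4 genes, GA 2-oxidase transcripts had 109 FPKM (1327 reads) and 139.5 FPKM (1757 reads) in untreated and ATP-treated WS, and 96.4 FPKM (1189 reads) and 148 FPKM (2032 reads) in *gpa1-2*. These sums followed *GA2ox6*.

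The median response of the 6 genes above 1 FPKM was 0.05 in WS and -0.56 in *gpa1-2*, beside -0.01 and 0.03 for all genes. Of these 6, *GA20ox2*, *GA3ox1* and *GA3ox2* reached 1 FPKM in only 1 of the conditions compared in each genotype, so a difference was built into their inclusion, and *GA20ox1*, *GA20ox3* and *GA2ox1* were left out by the same rule. The median is therefore a description only. At a limit of 0.5, none of the 6 genes was higher and 2 were lower in WS, while 1 was higher and 4 were lower in *gpa1-2*. The background at this limit was 11.8% higher and 13.6% lower in WS, and 13.3% higher and 13% lower in *gpa1-2*.

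Next, the genotypes were compared without ATP. None of the 6 genes above 1 FPKM differed by 1 or more on the log2 scale, and 2.18% of 19826 genes did. *GA2ox6* was lower in *gpa1-2*, with a ratio of scaled reads, *gpa1-2* over WS, of 0.810 (0.744 to 0.882). *GA2ox8* was higher in *gpa1-2*, with a ratio of 1.66 (1.18 to 2.36) by scaled reads and a log2 difference of 0.51 by FPKM, and it was the 1 gene past the limit of 0.5, which 5.03% of all genes passed upward. The intervals of the other 7 genes included 1. Among these, *GA2ox2* had a ratio of 1.33 (0.940 to 1.90), *GA3ox1* of 1.5 (0.662 to 3.54), *GA3ox2* of 1.09 (0.525 to 2.29), *GA20ox2* of 0.781 (0.462 to 1.31) and *GA20ox1* of 0.364 (0.0621 to 1.52). By the plain ratio of reads, *GA20ox1* was the 1 gene lower in *gpa1-2* by at least 2-fold, with 8 and 3 reads, against 6.52% of all genes.

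In ATP-treated roots, none of the 4 genes above 1 FPKM differed between the genotypes by 1 or more, as 2.67% of 19774 genes did. At the limit of 0.5, 1 gene was lower in *gpa1-2* (*GA3ox1*, at -0.58), against 6.26% of all genes. Here *GA3ox1* reached 1 FPKM only in WS, so a lower value in *gpa1-2* was built into its inclusion. By the plain ratio of reads, *GA3ox1* was lower by at least 2-fold, against 7.3% of all genes, and *GA20ox1* had 3 reads in WS and 0 in *gpa1-2*, for which no fold is given. *GA2ox6* had a ratio of 1.07 (0.998 to 1.14), and its log2 difference of 0.09 became -0.01 after quantile normalization, so no direction can be given. *GA3ox1* had a ratio of 0.434 (0.162 to 1.06) and *GA2ox8* of 1.34 (0.968 to 1.85). The interval of *GA20ox2*, with a ratio of 0.513 (0.135 to 1.70), spanned more than a 10-fold range because only 9 and 5 reads were counted. For none of the 8 genes with reads in both genotypes did the interval exclude 1, and *GA20ox1* had 0 reads in *gpa1-2*.

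The ATP responses of the genotypes were then set against each other as WS minus *gpa1-2* on the log2 scale. None of the 6 genes above 1 FPKM passed 1 in size, and 5.83% of 20350 genes did. The difference was largest in size for *GA3ox1* at 0.90, with a response of 0.32 in WS and -0.58 in *gpa1-2*. It was 0.60 for *GA2ox2* (0.05 and -0.54), 0.38 for *GA2ox8* (0.05 and -0.33) and -0.39 for *GA2ox6* (0.39 and 0.78). At the limit of 0.5, *GA3ox1* and *GA2ox2* were higher, 2 of 6 genes against 10.9% of all genes. *GA3ox1* reached 1 FPKM only in ATP-treated WS and untreated *gpa1-2*, so a difference in this direction was built into its inclusion. *GA20ox2*, with 0.06, and *GA3ox2*, with 0.13, had close responses in both genotypes, although with 5 to 36 reads per value a sizeable difference could not be seen at this depth. No difference between responses could be tested with 1 value per condition.

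The 3 genes whose pattern over the 4 conditions was most like that of *GA2ox6*, the gene with the most reads, were looked for among 17229 genes with at least 20 reads in every condition. Likeness was the Euclidean distance between the centred values of log2(FPKM + 1). AT4G17720 was nearest at a distance of 0.025, with 26.8, 35.3, 21.5 and 37.0 FPKM in untreated WS, ATP-treated WS, untreated *gpa1-2* and ATP-treated *gpa1-2*. *GLR5* (AT2G32400), a glutamate receptor-like channel gene, followed at 0.041 with 5.48, 7.48, 4.42 and 8.28 FPKM. AT3G06990 was the third at 0.050 with 6.20, 8.09, 4.89 and 9.07 FPKM. All 3 were higher after ATP in both genotypes, as the choice by pattern requires.

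A further 51 genes of the gibberellin pathway were read from 7 lists, and 39 of them had at least 1 FPKM. With ATP, 3 rose and 2 fell in WS and 3 rose and 2 fell in *gpa1-2*, with a median response of 0.04 and -0.07. Over all genes, 3.75% were higher and 4.28% lower in WS and 3.6% and 3.78% in *gpa1-2*. Upstream of the 9 enzymes, 0 of the 4 measured genes of early synthesis changed in either genotype. *GA3* (also *KO*), which encodes ent-kaurene oxidase, had 10.6, 9.46, 9.59 and 8.35 FPKM in the order used above, and *GA1* (also *CPS*), which encodes the first committed enzyme, had 0 reads in every condition. The median response of this list was -0.03 in WS and -0.16 in *gpa1-2*.

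Among 7 other oxidase genes, *GA20ox5* (AT1G44090) was the 1 gene above 1 FPKM, and it rose while the related *GA20ox2* fell. It had 1.42 FPKM (15 reads) in untreated WS, 4.52 FPKM (49 reads) in ATP-treated WS, 1.10 FPKM (12 reads) in untreated *gpa1-2* and 8.26 FPKM (97 reads) in ATP-treated *gpa1-2*. Both treated values were above both untreated values. The ratio of scaled reads was 3.18 (1.76 to 6.11) in WS and 7.49 (4.10 to 15.0) in *gpa1-2*, with log2 responses of 1.19 and 2.14. After ATP it thus had more FPKM than the sum of *GA20ox1*, *GA20ox2* and *GA20ox3* in both genotypes. The product of *GA20ox5* is known as only a partial GA 20-oxidase in *Arabidopsis*. Of 4 genes for other routes of inactivation, 2 had at least 1 FPKM and 0 changed. The higher of these, *CYP714A1*, had 5.25, 5.78, 3.76 and 7.44 FPKM with responses of 0.12 and 0.83.

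All 12 genes of perception and signalling had at least 1 FPKM. The receptor gene *GID1B* (AT3G63010) rose in both genotypes. In WS it had 47.3 FPKM (865 reads) untreated and 104.5 FPKM (1960 reads) after ATP, and the *gpa1-2* values were 52.8 FPKM (995 reads) and 116 FPKM (2356 reads). Its responses were 1.13 and 1.12, with ratios of 2.21 (2.04 to 2.40) and 2.2 (2.04 to 2.37). The other receptor genes did not change in the same way, since *GID1A* had responses of -0.48 and -0.44 and *GID1C* of -0.09 and -0.34. Of the DELLA repressor genes, *GAI* had responses of 0.61 and 0.68 and *RGA* of 0.18 and 0.14. *RGL1* had responses of -0.52 and 0.11, *RGL2* of -0.15 and -0.51 and *RGL3* of -0.67 and -0.13, and none of the 5 passed 1 in size. *SNE*, which encodes an F-box protein related to the DELLA-binding SLY1, had 3.61 FPKM (21 reads) in untreated WS, 5.02 FPKM (30 reads) in ATP-treated WS, 8.99 FPKM (54 reads) in untreated *gpa1-2* and 4.63 FPKM (30 reads) in ATP-treated *gpa1-2*. It was higher in untreated *gpa1-2* than in untreated WS by 1.12 on the log2 scale, and its responses differed by 1.21 between the genotypes. Without ATP it was the 1 gene past the limit among the 39 other pathway genes, against 2.18% of all genes. For the difference of responses 2 of the 39 passed, against 5.83% of all genes.

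Among the genes that respond to gibberellin or take part in its feedback, 7 of 8 had at least 1 FPKM. The α-expansin gene *EXPA1*, whose product loosens cell walls, rose in both genotypes, with 20.8 and 44.1 FPKM in untreated and treated WS, 20.7 and 50 FPKM in *gpa1-2*, and responses of 1.05 and 1.24. *EXPA8*, of the same family, fell from 19.7 FPKM (196 reads) to 7.53 FPKM (77 reads) in WS, a response of -1.28, and had 23.6 FPKM (243 reads) and 22.1 FPKM (245 reads) in *gpa1-2*, a response of -0.09. Among ATP-treated roots, *EXPA8* was higher in *gpa1-2* by 1.44, and the difference of its responses was -1.18. With ATP it was the 1 gene of 37 other pathway genes past the limit between the genotypes, against 2.67% of all genes. *GASA1*, a gibberellin-induced gene of a small secreted peptide, had the highest level of the list with 1398, 816, 1148 and 1222 FPKM and responses of -0.78 and 0.09.

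Of 12 transcription factor genes known to act on GA oxidase genes, 10 had at least 1 FPKM. *DDF1*, a CBF-related factor known to raise GA2ox expression under salt stress, fell in both genotypes. It had 55.8 FPKM (537 reads) in untreated and 5.97 FPKM (59 reads) in treated WS, against 34.9 FPKM (347 reads) and 5.70 FPKM (61 reads) in *gpa1-2*. Its responses were -3.03 and -2.42. *PIF1*, a bHLH factor known to act on gibberellin genes in seeds, fell in *gpa1-2* from 2.15 FPKM (40 reads) to 0.493 FPKM (10 reads), a response of -1.07, and had 1.03 FPKM (19 reads) and 0.647 FPKM (12 reads) in WS, a response of -0.30. *TEM1*, a repressor of GA3ox genes, was the most abundant with 88.7, 139, 64.6 and 128 FPKM and responses of 0.65 and 0.97. Of 3 transporter genes none changed, and the most abundant, *SWEET13*, had 2.07, 1.85, 1.67 and 2.33 FPKM.

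**Figure D3:**
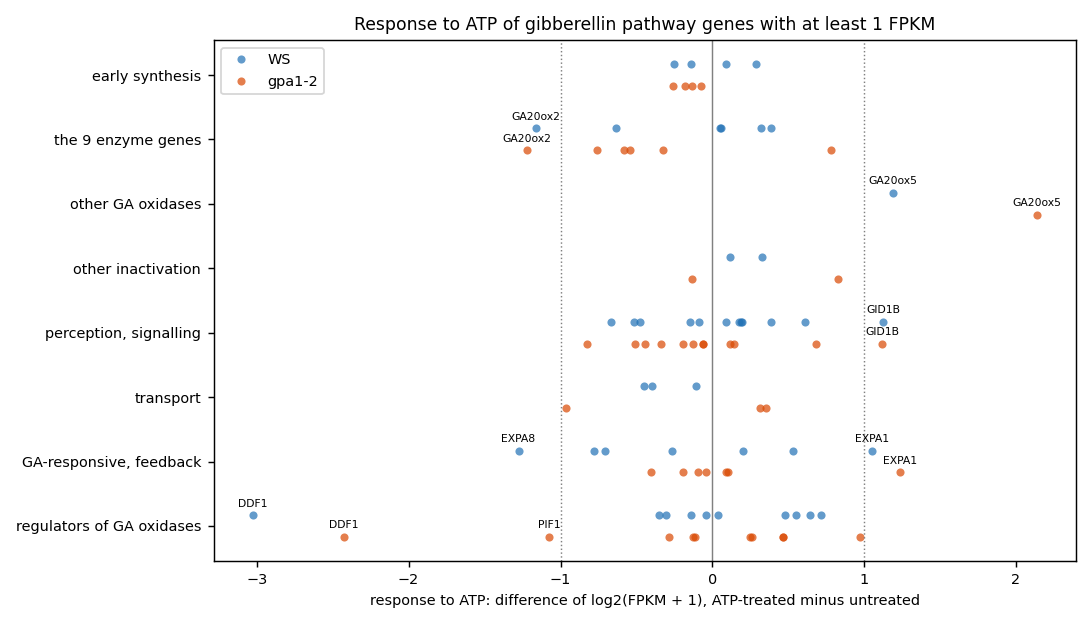
Response to ATP on the scale of log2(FPKM + 1), ATP-treated minus untreated (x axis), of gibberellin pathway genes with at least 1 FPKM in a condition compared, in WS (blue) and *gpa1-2* (orange). Rows are the gene lists, each point is a gene, dotted lines mark -1 and 1 and genes past them are named. *GA20ox2* lies beyond -1 and *GA20ox5* and *GID1B* beyond 1 in both genotypes, and *DDF1* lies farthest to the left.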

How the data were processed

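RNA of roots from 8 samples was deposited as 2 tables, 1 per genotype, with 1 value per gene and condition. The count columns that the authors deposited are a scaled signal rather than raw counts, and the deposited FPKM values carry the same scaling. The methods and labels describe Affymetrix arrays with MAS5 and Partek, which do not describe FPKM values, and the aligner, build and use of strand are not given in the sources used here. The tables' p-value, FDR and fold change columns hold the authors' comparisons and were not used, and 0 columns with values of a sample remained without use. Rows left empty in the tables were not analysed here.

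Whole reads were obtained by dividing each scaled count by the value of 1 read in its column, the mean of the 2 most frequent lowest values, and rounding. Between 98.9% and 99.2% of low values were whole within 0.1 read. Reads of a column lay on steps of separate sizes, but among genes with 16 reads 80.2% to 86.4% were divided 8 and 8, against 19.6% for a random division. These parts were therefore not used as replicates. The independence of reads that the intervals assume does not hold in full, so the intervals may be too narrow.

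Differences of log2(FPKM + 1) were computed over genes with at least 1 FPKM in a condition compared, and 1 in size was counted as changed. Ratios of scaled reads have exact Clopper-Pearson 95% intervals. No test between conditions was made. The computation of calls, intervals and reads was checked on simulated data with known changes. Simulated reads were independent and of a single step size per column, and changed genes had at least 20 reads in untreated WS. The check therefore covers the arithmetic only, and not the dependence of reads in these data or genes with fewer reads. The genes named are the 9 enzymes, *GPA1*, the genes of the pathway lists past the limit, the most abundant of each list and the 3 genes most like *GA2ox6*, and other genes were named after their values were seen. Members and lists were chosen with earlier results of these data known. Symbols were taken from RefSeq for 32797 of 33544 identifiers, and no sequence was used. The alternatives were other pseudocounts, filters, scalings and limits, the scaled counts, a minimum of 20 reads and, added after the data were seen, the plain ratio of reads. Python 3.11.15 was used with scipy 1.17.1, numpy 2.4.6, matplotlib 3.10.9 and pandas 2.3.3.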

Additional observations from a re-analysis of the deposited data

Results flagged for a closer look

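For 3 of the 9 genes the response to ATP had opposite signs in the 2 genotypes, and the difference was not tested because each condition has 1 value. The share of all genes with opposite signs was not computed. In WS the counting intervals of all 3 genes included 1, so their sign in WS is not determined. In *gpa1-2* the intervals of *GA3ox1* (0.163 to 1.07) and *GA2ox8* (0.713 to 1.28) also included 1, so neither of their signs is determined. The interval of *GA2ox2* in *gpa1-2* (0.439 to 0.898) did not include 1, but it may be too narrow. *GA3ox1* had a response of 0.32 in WS and -0.58 in *gpa1-2*, a difference of 0.90, on 8 to 17 reads per condition. *GA2ox2* had 0.05 and -0.54, a difference of 0.60, on 55 to 81 reads. *GA2ox8* had 0.05 and -0.33, a difference of 0.38, on 55 to 97 reads, and its FPKM and reads moved differently.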

How the results depend on the processing

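The count of 1 changed gene among the 9 in each genotype after ATP depended on the settings: it was 2 in WS and 3 in *gpa1-2* with a pseudocount of 0.1 FPKM, 0 in both with a pseudocount of 5 FPKM or a minimum of 10 FPKM, 2 and 5 at a limit of 0.5, and 4 and 4 by the plain 2-fold ratio of reads, which was added after the data were seen and in *gpa1-2* counts *GA20ox1* at 0 reads. The count of 0 between the genotypes became 1 without ATP and 1 with ATP at 0.5, 1 and 2 by the plain ratio, and, with ATP, 1 with a pseudocount of 0.1 FPKM. The count of 0 for the difference of responses became 1 with 0.1 FPKM and 2 at 0.5. Of the other 51 pathway genes, 39 were counted, or 37 between the ATP-treated genotypes. A limit of 0.5 gave 14 of them in WS and 11 in *gpa1-2* after ATP. It gave 5 between the genotypes without ATP, 6 with ATP and 14 for the difference. At the limit of 1 these were 5, 5, 1, 1 and 2. Of all genes, 25.4%, 26.3%, 9.75%, 13.5% and 23.5% passed 0.5 in the same order. The counts under these alternatives follow in part from the construction of each setting. A limit of 0.5 cannot count fewer genes than a limit of 1, and low genes move most with the pseudocount. The other 42 counts stayed within 1.5 times the reported one. The response of *GA20ox2* was -1.89 to -0.45 in WS and -2.34 to -0.42 in *gpa1-2*, and that of *GA2ox6* 0.38 to 0.43 and 0.65 to 0.79. Depth limits *GA20ox1*, *GA20ox3*, *GA3ox1*, *GA3ox2* and *GA2ox1*, with at most 18 reads per value. No replicate could be left out. No paired analysis was possible because the tables hold 1 value per condition and no replicate columns.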
